A study of Mus musculus with 12 samples.

Results

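Mirtrons are miRNAs whose hairpin precursor is a whole short intron, so that splicing takes over the cut that the Drosha and Dgcr8 complex makes in other miRNA precursors. After debranching, the intron folds, is exported and is cut by Dicer, and 1 arm enters an Argonaute protein. In the count files both mirtrons described here, mmu-miR-1224 and mmu-miR-877, were found by name, which gave 2 of the 469 miRNA names listed in any file. miR-1224 was selected on its measured level, which was higher in frontal cortex (FCx) than in hippocampus (HP), so its difference between the regions is given as a description with no test, whereas miR-877 was taken as the other mirtron.

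The small RNA of FCx and HP of male C57BL/6J mice aged 8 weeks was sequenced. Each region was represented by 1 RNA pool, from which 3 libraries were made with a different 6-base index (number 3, 7 or 11) on the 5′ adaptor. Each library was read in an individual lane and again in a lane pooled with the other libraries of its region, and the counts of both runs were summed. The 3 libraries of a region are thus technical replicates, and the spread between them does not hold the spread between animals. The libraries held 391410 to 1461732 miRNA counts in FCx and 3206221 to 4956117 in HP, so a given level was measured with a larger counting error in FCx. Levels were scaled to 1000000 miRNA counts in each library (CPM), with exact Clopper-Pearson 95% intervals that cover counting error only. In whole tissue, fewer cells of a type and less RNA per cell cannot be told apart. The neuronal miR-124, miR-128 and miR-9 summed to 241123 to 271724 CPM in FCx and to 103071 to 167715 CPM in HP. Most of this sum was miR-128, and only 1 of the 3 did not overlap between the regions. In the fit described below, miR-9 was lower in FCx.

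The mature sequences are shown because the 5′ arm of each hairpin, which supplied the counted reads, opens with the first bases of an intron. They were taken from RefSeq and are written 5′ to 3′ with the seed, bases 2 to 8, in capitals.
miR-1224-5p: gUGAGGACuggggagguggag
miR-1224-3p: cCCCACCUcuucucuccucag
miR-877-5p: gUAGAGGAgauggcgcaggg
miR-877-3p: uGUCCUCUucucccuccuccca

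Both 5′ arms start with GU, the invariant dinucleotide of a 5′ splice site. Beyond that they differed at most positions when set side by side from the 5′ end without gaps. The same base stood at 8 of 20 positions of the 5′ arms and at 2 of 7 seed positions, and neither seed occurred in another of the 1674 mature mouse miRNAs of RefSeq. Both 5′ arms were rich in guanine, at 61.9% of the bases of miR-1224-5p and 55% of those of miR-877-5p. The median of all mature miRNAs was 26.9%, and 10 and 37 of them respectively held a larger share. The 3′ arms were the counterpart, with 85.7% pyrimidines in miR-1224-3p and 90.9% in miR-877-3p, against a median of 50%. Pyrimidine-rich 3′ ends belong to introns in general, since the polypyrimidine tract lies just before the 3′ splice site.

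Each hairpin was identical to a whole annotated intron on the mouse build NCBIM37. The Mir1224 hairpin at chr16:20604525-20604609 on the plus strand was the intron of 85 bases between exons 22 and 23, the last exons of Vwa5b2, which encodes a protein with a von Willebrand factor A domain. The Mir877 hairpin at chr17:36097675-36097759 on the minus strand was the intron, likewise of 85 bases, between exons 12 and 13 of the 23 exons of Abcf1, which encodes an ATP-binding cassette protein that takes part in translation initiation. The introns are written on the strand of the host gene, with the mature arms in capitals.
Mir1224 intron: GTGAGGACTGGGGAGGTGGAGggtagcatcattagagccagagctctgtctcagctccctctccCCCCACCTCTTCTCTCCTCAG
Mir877 intron: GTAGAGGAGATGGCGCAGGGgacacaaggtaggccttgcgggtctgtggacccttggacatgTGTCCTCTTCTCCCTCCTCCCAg

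Both introns began with GT and ended with AG. The 3′ arm of miR-1224 reached the last base of its intron, position 85 counted from the 5′ splice site, whereas that of miR-877 stopped at position 84. Predicted minimum free energies (ViennaRNA, 37 °C) were -42.8 kcal/mol for the Mir1224 intron and -36.5 kcal/mol for the Mir877 intron. Over 478 annotated introns of the same length the median was -22.4 kcal/mol, and 0 and 23 of them respectively were lower. In the predicted fold, 16 of the 21 bases of miR-1224-5p paired with the 3′ arm, as did 13 of the 20 bases of miR-877-5p.

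miR-1224 was expressed on a higher level in FCx than in HP. In FCx the libraries with index 3, 7 and 11 held 158, 1089 and 178 counts, which corresponded to 404 CPM (343 to 472), 745 CPM (701 to 791) and 273 CPM (234 to 316). In HP the same indexes held 150, 553 and 75 counts, or 46.8 CPM (39.6 to 54.9), 112 CPM (102 to 121) and 18.5 CPM (14.6 to 23.2). The regions did not overlap, since the lowest FCx library lay above the highest HP library. Over the 3 libraries of FCx the level averaged 474 ± 244 CPM (SD, n = 3), and over those of HP it averaged 59.0 ± 47.7 CPM (SD, n = 3). By mean CPM miR-1224 ranked 71st among all listed miRNAs in FCx and 161st in HP.

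**Figure D1:**
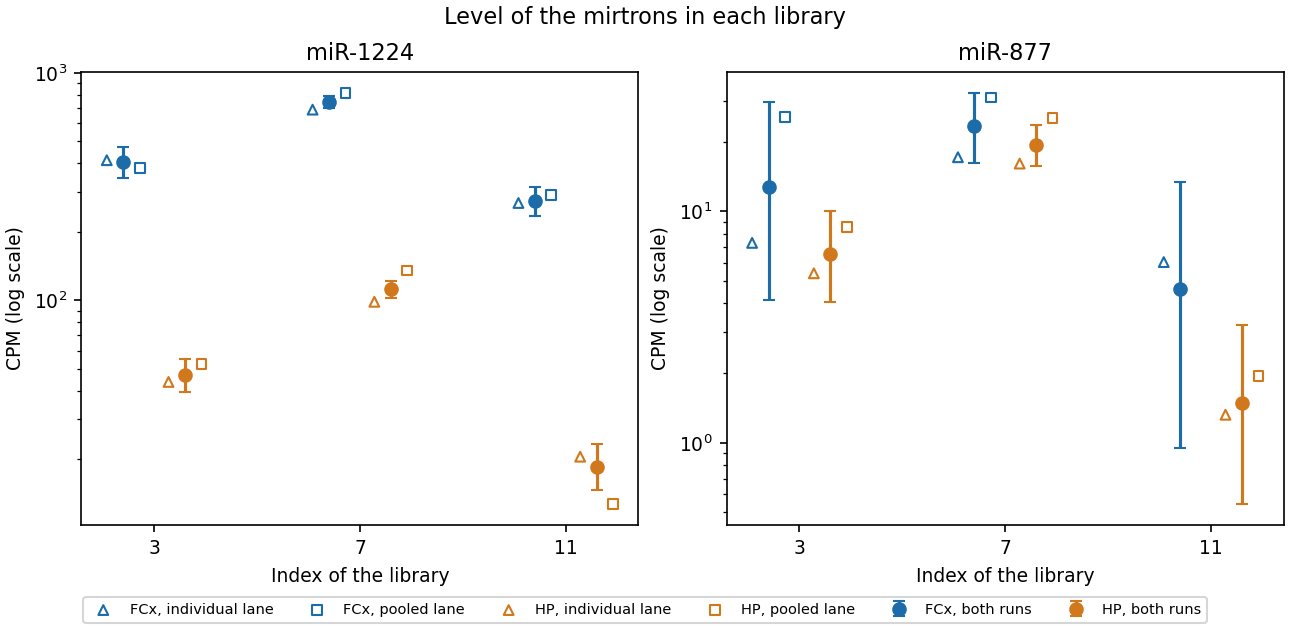
Level of miR-1224 (left) and miR-877 (right) in CPM on a log axis for each library, by index. Filled circles show both runs summed with exact 95% intervals, open triangles the individual lanes and open squares the pooled lanes. A lane without a count is not drawn, which applies to miR-877 in the pooled FCx lane of index 11. The FCx and HP circles are apart for miR-1224 and overlap in range for miR-877, and index 7 is the highest in each region.

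Among the 431 tested miRNAs, 24 showed higher levels in every FCx library than in every HP library (5.57%), and miR-1224 was chosen as 1 of these. Within an index the FCx level of miR-1224 was 8.63 times the HP level for index 3, 6.68 times for index 7 and 14.7 times for index 11. On the log2 scale these ratios averaged 3.24 ± 0.58 (SD, n = 3 indexes). In the individual lanes alone they were 9.45, 7.00 and 13.1, and in the pooled lanes 7.33, 6.04 and 22.9. The last ratio rested on 45 FCx counts and 13 HP counts. Of the 257 miRNAs that averaged 10 CPM or more, 9 had a higher ratio of mean FCx to mean HP level than miR-1224, whose ratio was 8.04, against a median of 1.04. The edgeR fit put the log2 fold change of miR-1224 at 2.83 (SE 0.91), with a median of -0.37 over all tested miRNAs. Scaled to library totals, that median was 0.03 and the log2 fold change of miR-1224 was 3.01.

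miR-877 was expressed on a low level in both regions, and no difference between them was detected. In FCx it held 5, 34 and 3 counts for index 3, 7 and 11, or 12.8 CPM (4.15 to 29.8), 23.3 CPM (16.1 to 32.5) and 4.60 CPM (0.948 to 13.4). In HP it held 21, 96 and 6 counts, or 6.55 CPM (4.05 to 10.01), 19.4 CPM (15.7 to 23.7) and 1.48 CPM (0.543 to 3.22). The ranges of the regions overlapped, although FCx was above HP within each index when both runs were summed, which was also seen for 85 of the 431 miRNAs (19.7%). miR-877 averaged 13.5 ± 9.35 CPM in FCx (rank 238) and 9.13 ± 9.22 CPM in HP (rank 258; SD, n = 3 each).

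The FCx level of miR-877 was 1.95, 1.20 and 3.11 times the HP level for index 3, 7 and 11. In the individual lanes alone it was 1.35, 1.07 and 4.57 times the HP level. In the pooled lanes it was 2.98 and 1.23 times for index 3 and 7, whereas for index 11 FCx held 0 counts and HP 2 counts, or 1.95 CPM. The log2 fold change was 0.45 (SE 1.07), with an adjusted p = 0.992 (edgeR, quasi-likelihood, Benjamini-Hochberg over the 431 miRNAs). The unblocked test has little power here, because the spread between indexes enters its error. In it 2 of the 431 miRNAs passed the threshold of 0.05 (0.464%), both with a higher level in FCx. With the index as a replicate block, 77 miRNAs passed (17.9%), of which 22 were above HP in FCx and 55 below, and the log2 fold change of miR-877 was 0.45 (SE 0.47), with an adjusted p = 0.609. Scaled to library totals, the blocked fit called 36 miRNAs higher in FCx and 20 in HP, and the log2 fold change of miR-877 was 0.64 (adjusted p = 0.537). Without the index 7 library of FCx the unblocked log2 fold change of miR-877 was -0.20. With the block and 1 index left out it was 0.54 to 0.83.

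**Figure D2:**
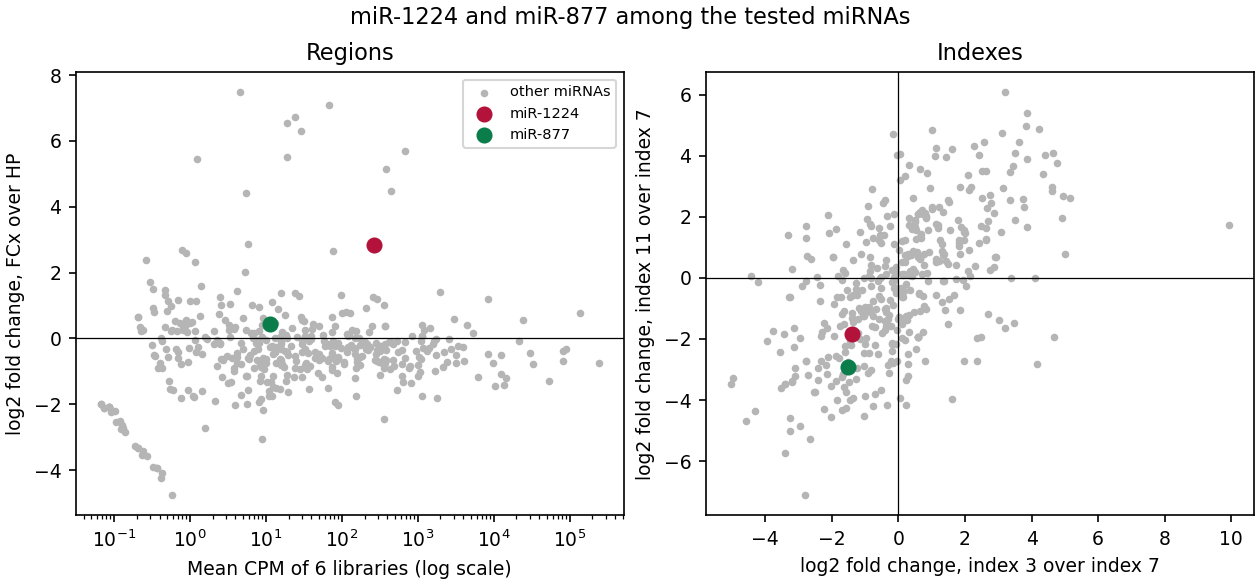
Left, the fitted log2 fold change between FCx and HP of each of the 431 tested miRNAs against its mean CPM over 6 libraries on a log axis. Right, the log2 fold changes of index 11 and of index 3 over index 7 with the region in the model. Each point is a miRNA, and miR-1224 at 2.83 lies above most miRNAs of its abundance on the left, whereas miR-877 at 0.45 lies nearer to 0. On the right both lie below 0 on each axis.

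The level of miR-1224 relative to miR-877 was higher in FCx than in HP. In FCx there were 31.6, 32.0 and 59.3 counts of miR-1224 for each count of miR-877 with index 3, 7 and 11. In HP the ratios were 7.14, 5.76 and 12.5. Every FCx ratio was thus above every HP ratio, which is a description because miR-1224 was selected for its level in FCx. Since both are read in the same library, this ratio does not depend on library size.

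Both mirtrons differed between the indexes, in the same order in each region. For miR-1224 and for miR-877, index 7 gave the highest level, then index 3, then index 11, in FCx as in HP. This order in both regions was found in 55 of the 431 miRNAs (12.8%), and in 50 of the 257 that averaged 10 CPM or more (19.5%). Index 7 alone was the highest in both regions in 100 of the 431 (23.2%). The highest index exceeded the lowest 2.73 times for miR-1224 in FCx and 6.03 times in HP. In the edgeR test between indexes with the region in the model, miR-1224 had a log2 fold change of -1.40 for index 3 over index 7 and of -1.84 for index 11 over index 7 (adjusted p = 2.31e-07). For miR-877 these values were -1.51 and -2.92 (adjusted p = 6.95e-06). The same test passed the threshold in 264 of the 431 miRNAs (61.3%), so a call between indexes was common. Without the index 7 library of HP, the adjusted p of miR-877 was 0.0762.

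Both runs of each library were set against each other by Fisher's exact test (two-sided, 12 tests, Benjamini-Hochberg adjusted). The test takes reads as independent molecules and covers counting error only, so it compares runs of a library and not the conditions. A difference was found in 2 of the 12, both for miR-1224 with index 7, where its counts were the highest in each region. Other miRNAs were not tested between runs, so how common such a difference is at these counts is not known. In FCx its level was 689 CPM in the individual and 817 CPM in the pooled lane (adjusted p = 0.0298). In HP the levels were 98.3 and 135 CPM (adjusted p = 0.00279). For miR-877 the lanes held 0 to 51 counts each, and none of its 6 comparisons passed the threshold.

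The reads placed on the genome showed where the mirtrons were cut. These alignments were at most 23 bases long, most often 22, so that 5′ ends could be read from them but 3′ ends could not. At the Mir1224 intron, 931 of 936 reads in FCx (99.5%) and 506 of 508 in HP (99.6%) began at the first base of the intron. At the Mir877 intron this was so for 30 of 30 reads in FCx and 93 of 95 in HP (97.9%). The few other reads started at the neighbouring base, on either side for miR-1224 and on the inner side for miR-877. Most reads of both mirtrons thus began at the 5′ splice site itself.

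Per library, with index 3, 7 and 11, the first base took 99.1%, 99.4% and 100% of the miR-1224 reads in FCx. In HP it took 100%, 99.7% and 98.0%. For miR-877 the share was 100% in each FCx library and 93.3%, 100% and 83.3% in HP, where the lowest value was 5 of 6 reads. The regions could not be told apart by an exact two-sided permutation test of 3 against 3 libraries (p = 0.9 for miR-1224 and p = 0.4 for miR-877), for which 0.1 is the smallest possible p. Over 238 miRNA hairpins with at least 100 reads, the median share of the most frequent 5′ end was 97.7%. Over all libraries Mir1224 reached 99.5%, with 24 hairpins above it, and Mir877 98.4%, with 95 above it.

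**Figure D3:**
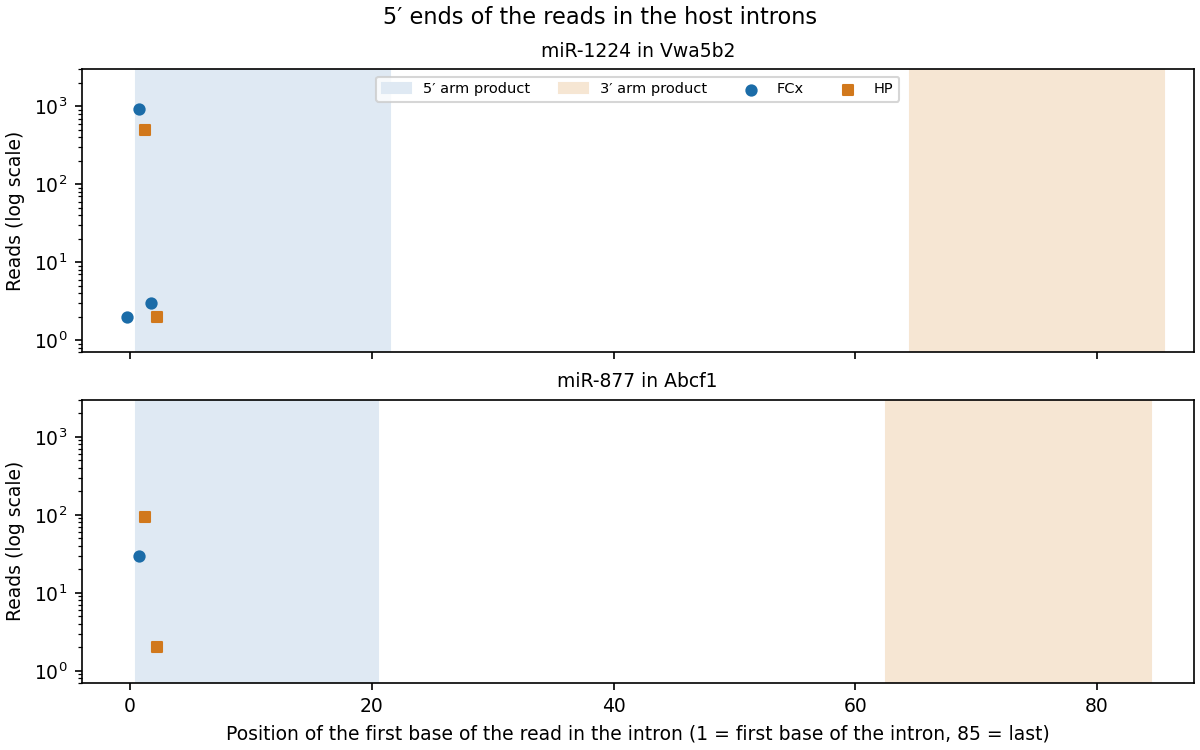
Number of reads on a log axis whose first base falls at each position of the intron, summed over the 3 FCx and the 3 HP libraries, for miR-1224 (top) and miR-877 (bottom). Shaded bands mark the mature arms. The points gather at position 1, with 931 and 506 reads for miR-1224 and 30 and 93 for miR-877, and no point lies in the 3′ arm.

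Few or no reads came from the opposite arm. In the genome alignments, 0 of 1444 sense reads at Mir1224 fell on the 3′ arm, which allows a share of up to 0.208%, and at Mir877 0 of 125, which allows up to 2.40%. In the count files the 3′ arm of miR-877 was listed, as miR-877*, and held 2 counts with index 7 in FCx and 2 with index 3 in HP, and 0 in the other libraries. Within 200 bases on either side of the intron there were 0 reads at Mir1224 and 1 at Mir877. Across a splice site 2 reads and 0 reads were placed, and 1 and 0 lay on the opposite strand.

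Fewer reads were placed at the introns than were counted. The alignments within 5 bases of the main 5′ end were 0.653 of the counts for miR-1224 (1438 of 2203) and 0.745 for miR-877 (123 of 165). The median over 132 miRNAs was 0.912. The genome held 1 exact match to each mature 5′ arm, none with 1 mismatch, and 35 sites with 2 mismatches to miR-1224-5p and 24 to miR-877-5p. At such sites 386 further alignments were found for miR-1224-5p and 6 for miR-877-5p. Most of the 386 lay at a pair of sites that share the first 19 bases of miR-1224-5p. One, at chr14:99391019-99391039 on the plus strand, differed by A20T and G21A and held 189 alignments. The other, at chr3:29047070-29047090 on the minus strand, differed by A20C and G21T and held 151, where positions are counted from 1 at the 5′ end of the miRNA. Scaled to miRNA counts, the mean FCx level was 6.33 times the HP level at the former and 7.92 times at the latter, against 8.24 times at the Mir1224 intron.

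Few other short introns carried reads that start at their 5′ splice site. The annotation held 20598 different 5′ splice sites of introns of 40 to 150 bases, and in alignments of at least 18 bases only 26 of these carried a read that began exactly there, of which 4 carried at least 10. The Mosc2 intron held the most of these reads, with 3155. The Vwa5b2 intron, with 1431 reads, was the second and the Abcf1 intron, with 121, was the fourth. The 26 sites held 5016 reads in all. The plot of the leading introns shows the levels of the mirtrons beside their neighbours in this order. This scan was added after the reads at the mirtrons had been seen.

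**Figure D4:**
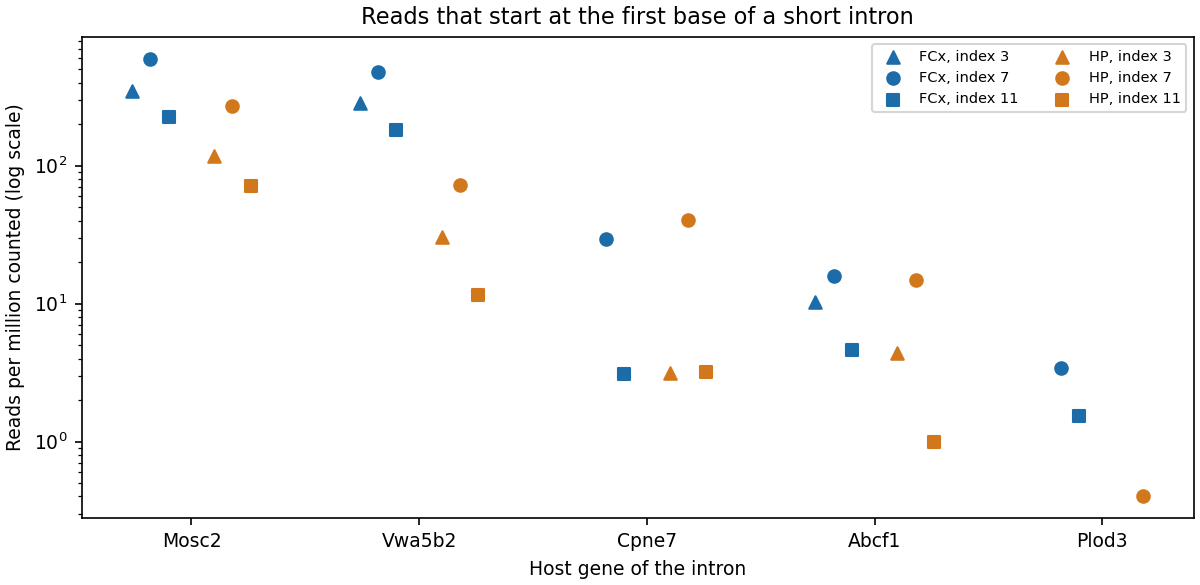
Reads that begin at the first base of the intron, per 1000000 miRNA counts on a log axis, for the 5 short introns with the most such reads, named by host gene. Colours mark the region and shapes the index, and libraries without a read are not drawn. The Vwa5b2 intron of miR-1224 lies between 182 and 477 in FCx and between 11.6 and 72.2 in HP, and the Abcf1 intron of miR-877 between 4.60 and 15.7 in FCx and between 0.987 and 14.7 in HP.

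Other miRNAs known to be made without Drosha and Dgcr8 were either at the limit of detection or overlapped between the regions. Overlap was common, since only 24 of the 431 tested miRNAs (5.57%) had every FCx library above every HP library. miR-702, a mirtron of Plod3, held 0, 0 and 1 count in FCx and 2, 1 and 3 counts in HP, too few for a comparison. In the genome alignments, 6 reads in FCx and 2 in HP began at the first base of the Plod3 intron. These exceed the 1 count of miR-702 in FCx, so the counts and these reads are not the same set. miR-320, whose precursor is capped at its first transcribed base, reached 3142, 849 and 1557 CPM in FCx and 1519, 1041 and 560 CPM in HP, so that the regions overlapped. miR-484, which has a precursor of the same kind, was at 25.5, 11.6 and 103 CPM in FCx and at 20.6, 17.2 and 213 CPM in HP. None of the 3 passed the region test (adjusted p = 0.992 for each by edgeR), which only 2 of the 431 miRNAs passed (0.464%). With the replicate block, miR-484 was higher in HP (log2 fold change -1.01, adjusted p = 0.0172), as were 55 of the 431 miRNAs (12.8%). Scaled to library totals, the blocked fit called 20 miRNAs higher in HP (4.64%) and miR-484 was not among them (-0.56, adjusted p = 0.401). Between indexes, miR-320 and miR-484 passed the threshold, as did 264 of the 431 miRNAs (61.3%), and miR-702 did not. In miR-320 and miR-484, index 7 was the highest in neither region, unlike in miR-1224 and miR-877. Index 7 was the highest in both regions in 100 of the 431 (23.2%).

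The miRNAs whose levels were most like those of each mirtron were different ones. Likeness was the Pearson r of log2(CPM + 1) over the 6 libraries among the 256 other miRNAs that averaged 10 CPM or more, and the libraries share their index and depth. For miR-1224 these were miR-200a (r = 0.953), miR-200b* (r = 0.941) and miR-182 (r = 0.926). The libraries span both regions, so these values include the difference for which miR-1224 was selected and are a description only. The miR-200 family is best known from epithelia, including the olfactory epithelium, and miR-182 from sensory cells. For miR-877 they were miR-665 (r = 0.998), a miRNA of the imprinted Dlk1-Dio3 region, miR-30d (r = 0.989) of the miR-30 family, and the brain-enriched miR-129-5p (r = 0.986). The mirtrons had an r of 0.730 with each other, which ranked miR-877 21st for miR-1224 and miR-1224 68th for miR-877.

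**Figure D5:**
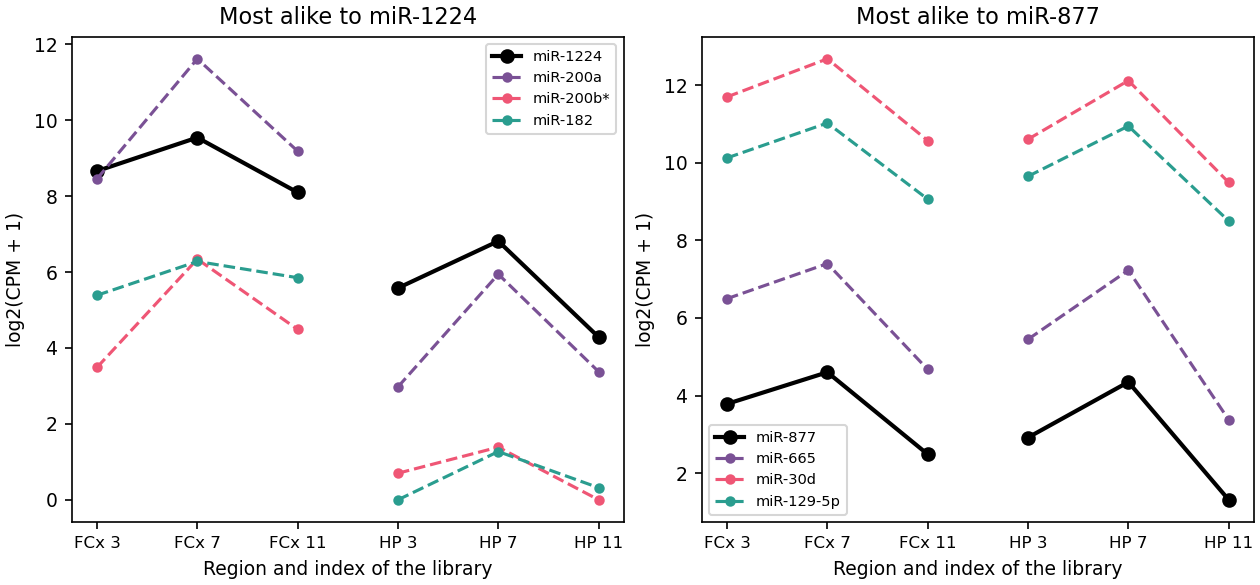
log2(CPM + 1) in the 6 libraries, by region and index, of miR-1224 (left) and miR-877 (right) in black with the 3 most alike miRNAs of each. On the left all fall from FCx to HP, with miR-1224 going from 404, 745 and 273 CPM to 46.8, 112 and 18.5 CPM. On the right the lines peak at index 7 in each region, with 23.3 CPM in FCx and 19.4 CPM in HP for miR-877.

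A list of 8 miRNAs of olfactory or sensory epithelium, to which miR-200a and miR-182 belong, was also higher in FCx. As miR-1224 was selected for its higher level in FCx, the shared direction is a description only. All 8 had higher levels in each FCx library than in each HP library, which was so for 24 of all 431 tested miRNAs (5.57%). The study had already reported these 8 as overexpressed in FCx from the same libraries. Their count is therefore not independent of that result and says nothing about enrichment of the list. Their sum was 1478 to 5702 CPM in FCx and 24.7 to 134 CPM in HP, with none at 0 throughout. The neuronal sum given above was likewise higher in each FCx library. By itself, only 1 of its 3 miRNAs did not overlap between the regions. Most of the sum was miR-128, with a mean of 137782 CPM over the 6 libraries, against 33297 for miR-9 and 24438 for miR-124. In the unblocked edgeR fit miR-128 and miR-124 were higher in FCx (log2 fold changes 0.77 and 0.55). There miR-9 was lower in FCx (-0.78), with a median of -0.37 over all tested miRNAs. The part of either list in the level of miR-1224 was not tested. The summed lists for oligodendrocytes, endothelium, microglia and blood, and choroid plexus overlapped between the regions. Taken singly, 1 of the 2 endothelial miRNAs was higher in each HP library than in each FCx library. No single miRNA of the other lists in this group separated the regions.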

How the data were processed

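The deposited files held whole-number read counts per mature miRNA name and genome alignments. According to the study's methods, the authors sorted reads by index, trimmed them and aligned them with Bowtie to miRBase and to the mouse genome (NCBIM37). Both runs of a library were summed, which gave 3 libraries per region, and names not listed in a file were set to 0 counts. The alignments are given by their start and end coordinates and were used to read 5′ ends.

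Counts were tested with edgeR 4.0.16 (quasi-likelihood test, TMM scaling) over the 431 miRNAs that reached 2 counts in a region, and p-values were adjusted by Benjamini-Hochberg. DESeq2 1.42.0 was an alternative. Libraries with the same index deviated together from their region means (r = 0.748, 0.841 and 0.829 for index 3, 7 and 11, against -0.580 to -0.244 for different indexes), so the index numbers were taken to pair the libraries. The fits were tested on simulated data with known changes between the regions. With differences between indexes as large as those measured, the fit without the replicate block called none of the changed miRNAs, while the blocked fit called most of them, as did the unblocked fit when the indexes did not differ. A missing call in the unblocked region test therefore says little about a difference. Smaller changes at low counts, such as those of miR-877, were not simulated, so the power of the blocked fit for them is not known. Introns were taken from GENCODE annotation of NCBIM37 and folded with ViennaRNA 2.7.2.

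The text names both mirtrons and their opposite arms, miR-702, miR-320 and miR-484, and the 3 miRNAs most alike to each mirtron. Members and lists were chosen with earlier results of these data known. The p-values measure technical spread, since all libraries of a region come from 1 RNA pool, and depth limits miR-877 most, with 3 to 96 counts per library.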

Additional observations from a re-analysis of the deposited data

Results flagged for a closer look

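Reads at short introns whose miRNA is in none of the count files were singled out, because they lie outside the counted miRNAs. The study's methods give miRBase version 11 as the set of known miRNAs, so a miRNA absent from that release could not be listed. Whether miR-1981 and miR-7080 are in that release was not checked, so their absence is not a count of 0. The Mosc2 intron, annotated in RefSeq as the miR-1981 hairpin, carried 3155 reads that began at its first base, more than the Vwa5b2 intron of miR-1224. Its mean was 391 ± 188 reads per 1000000 miRNA counts in FCx and 153 ± 103 in HP (SD, n = 3). Within index 3, 7 and 11 it was 350, 597 and 227 in FCx against 118, 269 and 71.0 in HP, so that FCx was higher within each index, although the lowest FCx library lay below the highest HP library. The Cpne7 intron, annotated as the miR-7080 hairpin, carried 267 such reads, of which 43 of 45 in FCx and 199 of 222 in HP came from index 7. Index 7 was also the highest in both regions at the Mosc2, Vwa5b2, Abcf1 and Plod3 introns. The Plod3 intron held only 8 such reads, 6 in FCx and 2 in HP, so its order rests on very few reads. Among all counted miRNAs tested, index 7 was the highest in both regions in 100 of 431 (23.2%).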

How the results depend on the processing

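The count of miRNAs called between FCx and HP, which is the background for the mirtrons, was 2. It was 12 with DESeq2, 8 without a filter, 9 with edgeR's exact test, 0 in the pooled lanes alone (18 at an unadjusted p under 0.05 by edgeR, against 17 in both runs), 15 with the 12 lane files as samples, and 0 to 7 when 1 library was left out by edgeR. It was 0 without the index 3 or the index 11 library of HP (14 and 17 unadjusted) and 7 without the index 11 library of FCx or the index 7 library of HP. With the replicate block it was 77, with the block and library totals 56, with the block in DESeq2 41, with the block over 12 lane files 120 (the last pair chosen after seeing the data), and 30 to 51 with the block and 1 index left out. The log2 fold change of miR-1224 kept its direction throughout, from 2.44 to 3.69 without 1 library, the highest without the index 7 library of HP, and was 2.82 (SE 0.30) with the replicate block, against 2.83 (SE 0.91) without it. This contrast was not tested. That of miR-877 was -0.20 to 1.66 without 1 library, the negative value without the index 7 library of FCx. With the replicate block and 1 index left out it was 0.54 to 0.83. The adjusted p of miR-877 was 0.381 to 1 under all alternatives, so the replicate block did not change its call. Between indexes, the adjusted p of miR-1224 was 8.71e-08 to 0.0297. That of miR-877 was 7.88e-07 to 0.0762, the last without the index 7 library of HP, where its log2 fold change of index 11 over index 7 was -2.44. Leaving out 1 library gave -3.19 to -2.27. The difference in the share of reads at the first intron base of miR-1224 was 0.288 percentage points, and -0.346 to 0.674 without 1 library, with the negative value without the index 11 library of HP. For the changes named here the cause was not tested. Of 128 alternative values, 108 kept their direction and side of the threshold, or stayed within the replicate spread or within 1.5 times the count. Restricting the alignments of miR-877 to pooled lanes gave no share, since a library had no read.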

Other observations

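Among the 238 hairpins with at least 100 aligned reads, index 7 gave the highest level in both regions in 59 (24.8%). For hairpins whose main read starts with GU, as both mirtrons do, this was so in 5 of 6, and for those that start with G in 8 of 18. The grouping by first bases was chosen after the values of the mirtrons had been seen, and both mirtrons are among the 6, so these are counts with no test.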
